A study of Homo sapiens with 12 samples.

Results

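The genes described here encode the machinery that transcribes other genes: subunits of RNA polymerases I, II and III, the Mediator complex, the general initiation factors, the elongation factors and the Integrator complex, with their copies and pseudogenes. They were chosen by symbol alone, from the symbol families of these complexes and a short list of their kinases, cyclins and partners, and 62 of the 8579 genes in the count table met the rule. Of these 62, 54 are protein-coding. The remaining 8 are the pseudogenes CPSF1P1, GTF2H2B, GTF2IP20, GTF2IP4, INTS4P1 and SUPT16HP1, the transcript POLR2J4, and MED14OS, which is antisense to MED14. POLR2A, the catalytic subunit of RNA polymerase II, and CDK7, CDK8, CDK9, CCNT1, AFF4, SUPT5H and the NELF subunits were not analysed here.

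RNA was measured in A375, an established human melanoma line with the BRAF-V600E mutation, after 72 hours of treatment. COMBO cells received SEL201 at 2.5 µM with OTX015 at 50 nM, OTX015 cells and SEL201 cells received 1 agent each at the same dose, and UNTREATED cells carry DMSO, the solvent, as their treatment label. SEL201 is an inhibitor of the MNK kinases, which act on the cap-binding protein eIF4E, and OTX015 one of the BET bromodomain proteins. Each group had 3 libraries, numbered 1 to 3, all from this single cell line, and the series asks what the combination changes in BRAF-mutant melanoma cells.

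RNA polymerase II starts at promoters with the help of general factors, among them TFIID, TFIIB, TFIIE and TFIIH, while Mediator carries signals from enhancer-bound factors to the polymerase. Soon after the start the polymerase pauses, and the kinase P-TEFb, alone or within the super elongation complex built on AFF proteins with ELL factors, releases it. Until needed, P-TEFb is held inactive by a small nuclear RNA that LARP7 stabilises. BET proteins are known to bind P-TEFb and Mediator at acetylated chromatin, which makes these genes close neighbours of the target of OTX015. Integrator cuts nascent RNA near promoters, and RNA polymerases I and III make ribosomal RNA and short non-coding RNAs.

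Promoters are shown for members called in COMBO against UNTREATED (edgeR adjusted p under 0.05) that have a single RefSeq promoter window: the 4 that rose most and the 2 that fell most. Each sequence is the 250 bases before the gene's start in RefSeq, build GRCh38.p14, read 5′ to 3′ on the gene's strand. Capitals mark matches, on either strand and overlaps included, to an E-box (CACGTG), an ETS core (CCGGAAG), an NRF1 motif, a CCAAT box (CCAAT), a GC box (GGGCGG) or a TATA box (TATAAA).
MED12L, chr3:151085414-151085663, plus strand: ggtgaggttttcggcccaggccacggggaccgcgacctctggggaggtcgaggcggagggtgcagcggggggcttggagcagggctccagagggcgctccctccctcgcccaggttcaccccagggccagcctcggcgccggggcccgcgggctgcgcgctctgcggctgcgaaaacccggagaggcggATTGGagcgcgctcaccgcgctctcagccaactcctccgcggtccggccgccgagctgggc
TAF12, chr1:28643068-28643317, minus strand: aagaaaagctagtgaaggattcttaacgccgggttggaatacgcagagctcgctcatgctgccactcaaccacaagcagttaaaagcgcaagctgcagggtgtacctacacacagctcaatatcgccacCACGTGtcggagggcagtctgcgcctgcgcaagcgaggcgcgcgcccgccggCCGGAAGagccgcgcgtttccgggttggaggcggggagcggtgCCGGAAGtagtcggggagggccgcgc
GTF2B, chr1:88891568-88891817, minus strand: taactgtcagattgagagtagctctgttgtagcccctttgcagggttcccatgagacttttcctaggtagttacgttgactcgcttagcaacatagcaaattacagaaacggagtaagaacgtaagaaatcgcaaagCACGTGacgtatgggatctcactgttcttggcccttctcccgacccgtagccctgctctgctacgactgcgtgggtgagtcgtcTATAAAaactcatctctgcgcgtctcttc
MED26, chr19:16628205-16628454, minus strand: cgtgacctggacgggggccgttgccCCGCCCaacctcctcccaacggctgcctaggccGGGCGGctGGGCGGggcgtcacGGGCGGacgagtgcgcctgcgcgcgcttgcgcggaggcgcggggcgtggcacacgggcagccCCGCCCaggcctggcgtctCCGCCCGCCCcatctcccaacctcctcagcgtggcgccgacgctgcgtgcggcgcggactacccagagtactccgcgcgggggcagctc
TAF1A, chr1:222589934-222590183, minus strand: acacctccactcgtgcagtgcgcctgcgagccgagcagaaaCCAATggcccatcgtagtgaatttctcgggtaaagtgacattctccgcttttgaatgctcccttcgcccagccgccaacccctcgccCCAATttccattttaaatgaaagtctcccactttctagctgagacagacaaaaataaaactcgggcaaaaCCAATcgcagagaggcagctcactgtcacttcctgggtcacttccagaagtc
MED18, chr1:28328790-28329039, plus strand: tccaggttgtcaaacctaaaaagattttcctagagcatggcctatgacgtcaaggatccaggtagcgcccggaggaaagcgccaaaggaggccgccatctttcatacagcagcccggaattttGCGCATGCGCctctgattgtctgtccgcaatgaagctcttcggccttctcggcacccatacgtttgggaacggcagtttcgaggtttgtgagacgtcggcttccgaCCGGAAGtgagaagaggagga

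Among the 4 risers shown, MED26 had 7 GC-box matches and no other match. TAF12 had an E-box and 2 ETS cores, GTF2B an E-box and a TATA box whose first letter lies 29 bases before the start, and MED12L a single CCAAT box. Among the 2 fallers shown, TAF1A had 3 CCAAT boxes and MED18 an NRF1 motif and an ETS core. Over the full windows of 250 bases before to 50 after the start, 43 members had an entry. An E-box was found in 4 of 18 members higher in COMBO, in 1 of 10 lower members and in 0 of 15 members not called, against 9.13% of the table's 5773 genes with a window and 7.26% of all 35114 windows. The ETS core was found in 4 of 18 higher, 5 of 10 lower and 3 of 15 uncalled members, against 16.1% of the table's genes and 10.3% of all windows. CCAAT was present in 9 of 18 higher, 3 of 10 lower and 6 of 15 uncalled members, and in 36.5% of the table's genes and 34.6% of all windows. A GC box was present in 11 of 18 higher, 5 of 10 lower and 10 of 15 uncalled members, and in 67.6% of the table's genes and 45% of all windows. A TATA box was present in 2 of 18 higher, 1 of 10 lower and 1 of 15 uncalled members (5.99% of the table's genes and 11.5% of all windows), and the NRF1 motif in 1 member of each class (1.78% of the table's genes and 1.24% of all windows). These matches are letters in a window and were not tested against the changes.

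The counts behind these values were moderate. Column totals, which cover the table's genes only and are not the sequencing depth, were 15146071 to 23247709 in COMBO, 18917153 to 21834086 in OTX015, 16382375 to 22626418 in SEL201 and 20346729 to 24111541 in UNTREATED. Members averaged between 121.2 and 8073 counts per library. The filter on low counts removed none of the 62 members, nor any other of the table's 8579 genes. Levels are CPM, which are counts scaled by the table's total for each library after TMM scaling, so a change in RNA per cell that most genes share cannot be told apart from no change, and levels are not compared between genes. Of 11 melanocyte markers, 7 were in the table, with MITF at 137 to 187 CPM and PAX3 at 127 to 159 CPM over all libraries, and MLANA and PMEL low, at 3.5 to 7.58 CPM. The 7 summed to 649 to 659 CPM in COMBO, 667 to 695 in OTX015, 683 to 712 in SEL201 and 795 to 871 in UNTREATED. Of 6 fibroblast markers, 4 were in the table and summed to 76.2 to 84.0 CPM in COMBO, 91.2 to 93.9 in OTX015, 109 to 128 in SEL201 and 125 to 167 in UNTREATED. KRT8, 1 of 4 epithelial markers, ran at 93.1 to 102 CPM in COMBO, 107 to 115 in OTX015, 120 to 127 in SEL201 and 193 to 204 in UNTREATED. The leukocyte and endothelial markers were not analysed here. All 3 sums were lower in every COMBO and OTX015 library than in any UNTREATED library, and their part in the members' changes was not tested.

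In COMBO against UNTREATED, 22 of 62 members rose and 12 fell (35.5% and 19.4%), against 28.3% and 29.6% of all genes tested. OTX015 alone raised 19 members and lowered 5 (30.6% and 8.06%), against 23.3% and 24.7% of all genes. SEL201 alone raised 8 and lowered 5 (12.9% and 8.06%), against 10.1% and 11.1% of all genes. The rising shares lay close to those of all genes and the falling shares below them, and neither difference was tested. With the replicate number as a block the SEL201 counts were 13 higher and 8 lower, against 18% and 19.1% of all genes. Leaving out 1 of the 6 compared libraries gave 3 to 4 higher and 3 to 4 lower with SEL201, whichever library it was. The number lower in COMBO was 7 without UNTREATED library 2 and 9 to 12 without any 1 of the other libraries compared. Shares of all genes in the fits without 1 library are not given here. The members' median log2 change was 0.13 in COMBO, 0.08 in OTX015 and 0.05 in SEL201, against medians of all genes of 0.002, 0.002 and -0.0003. The 3 comparisons share the UNTREATED libraries. Members made up 1.158% to 1.183% of counts in COMBO, 1.170% to 1.187% in OTX015, 1.120% to 1.135% in SEL201 and 1.105% to 1.123% in UNTREATED.

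**Figure D1:**
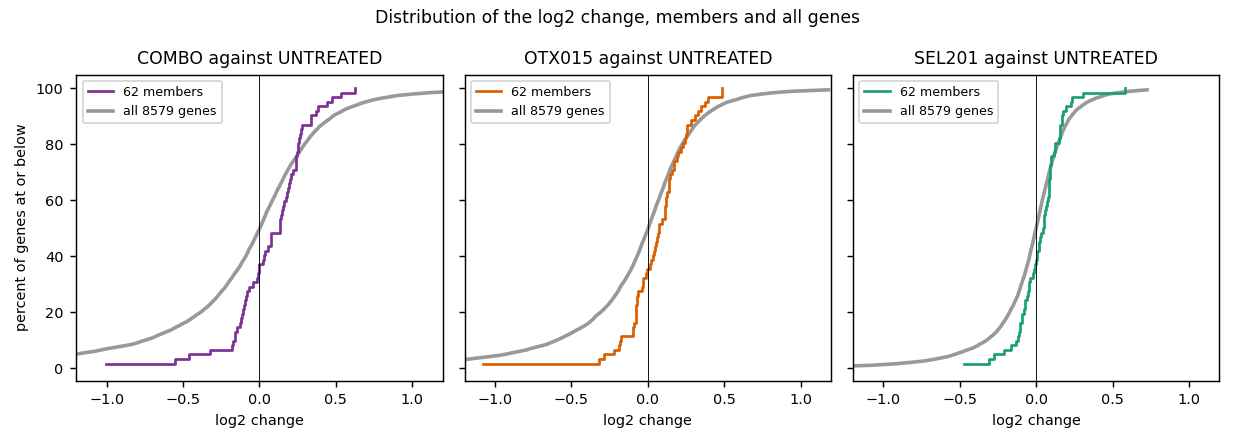
Cumulative percent of genes (vertical axis) at or below each log2 change (horizontal axis) for COMBO, OTX015 and SEL201 against UNTREATED; the coloured line is the 62 members and the grey line all 8579 genes. The members' line lies below the grey line on the left and crosses it on the right, where few members reach the large changes seen among all genes.

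The changes were small in size. Only 2 of 62 members, AFF3 and MED12L, were called and changed by more than 1.5-fold in COMBO, against 20.3% of all genes. OTX015 moved 1 member (AFF3) that far, against 13.9% of all genes, and SEL201 moved 0, against 4.98%.

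**Figure D2:**
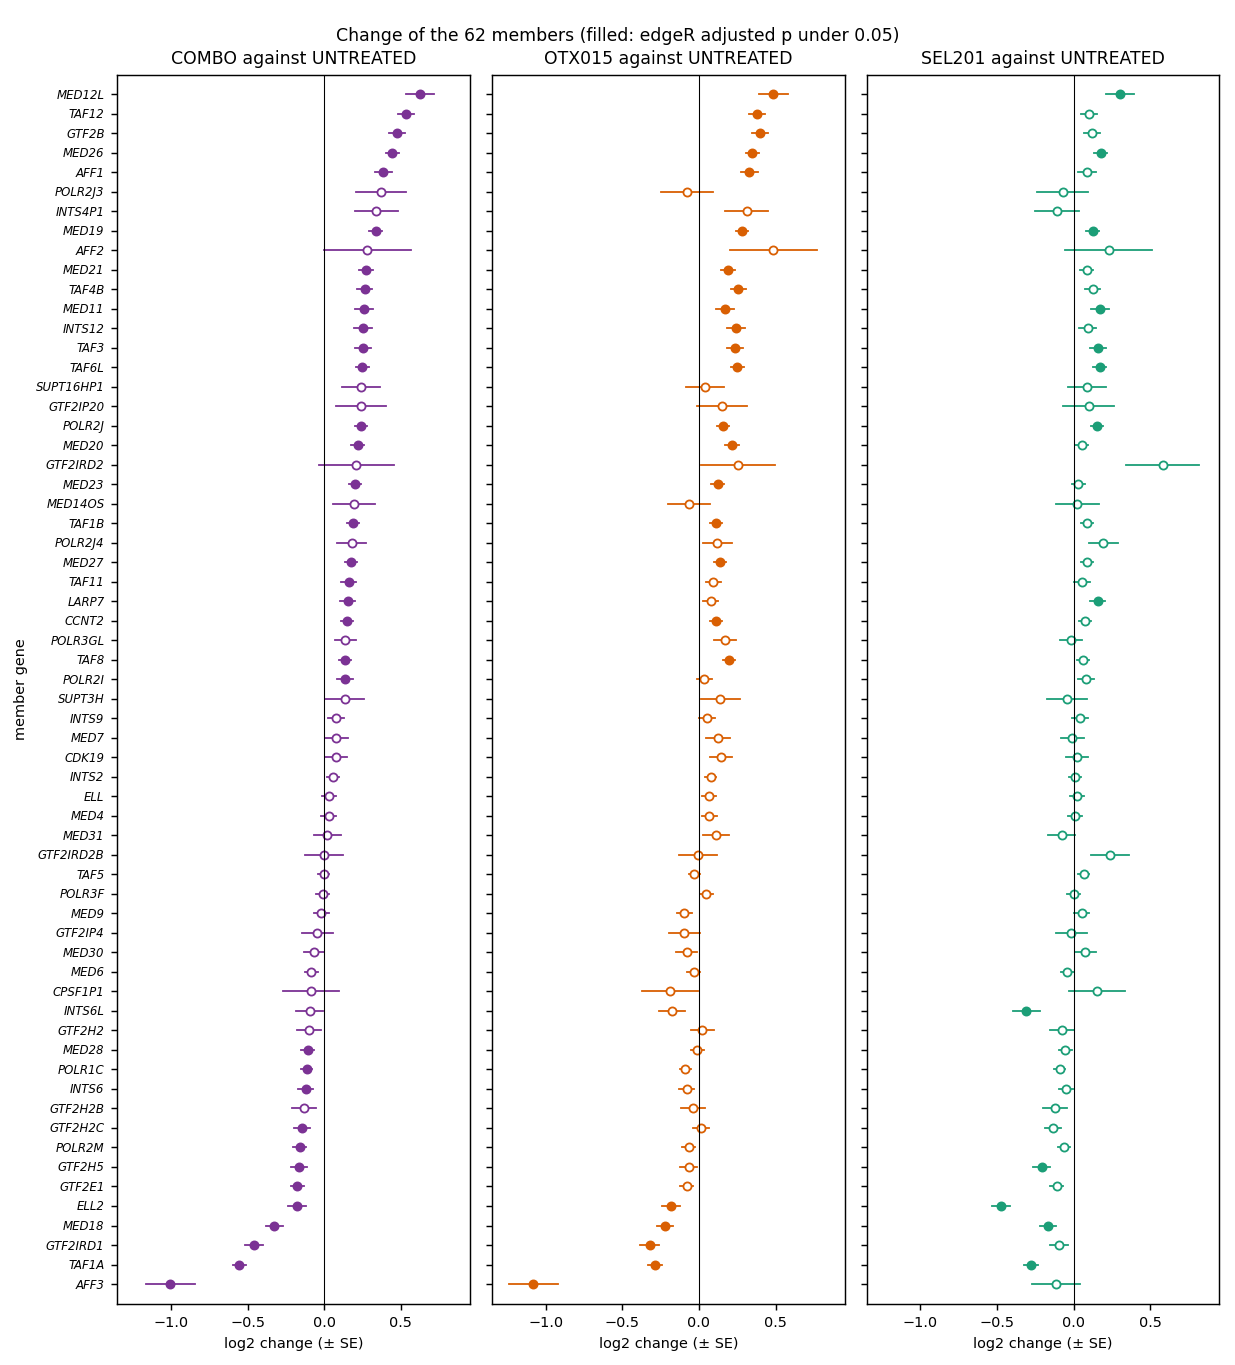
Log2 change of each of the 62 members (horizontal axis, bars ± SE) in COMBO, OTX015 and SEL201 against UNTREATED, in the order of the COMBO change; filled points have an edgeR adjusted p under 0.05. MED12L, TAF12, GTF2B, MED26 and AFF1 stand at the top in COMBO, and AFF3, TAF1A, GTF2IRD1 and MED18 at the bottom. In OTX015 the largest rise was that of AFF2 (log2 change 0.49), which was not called.

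TFIID, which recognises core promoters, rose in most of its measured subunits with OTX015 and with COMBO. In COMBO 5 of 6 rose and 0 fell (median log2 change 0.20), in OTX015 4 rose and 0 fell (0.21), and in SEL201 1 rose and 0 fell (0.08), or 3 and 0 with the replicate block. Of all genes, 28.3% rose and 29.6% fell in COMBO, and 23.3% and 24.7% in OTX015. In SEL201 the shares were 10.1% and 11.1%, or 18% and 19.1% with the block. No count per complex, here or below, was tested against these shares. TAF12, a histone-fold subunit of both TFIID and the coactivator SAGA, had 298, 280 and 273 CPM in COMBO, 261, 245 and 260 CPM in OTX015, 222, 205 and 204 CPM in SEL201, and 208, 191 and 190 CPM in UNTREATED. All COMBO and OTX015 libraries lay above all SEL201 and UNTREATED libraries, while SEL201 and UNTREATED overlapped. TAF12 was 1.44-fold higher in COMBO (log2 change 0.53, SE 0.05, adjusted p = 8.6e-07) and 1.30-fold higher in OTX015 (log2 change 0.38, adjusted p = 4.1e-05). In SEL201 its log2 change was 0.10 (adjusted p = 0.2, or 0.036 with the replicate block). TAF4B, a paralogue of the scaffold subunit TAF4, rose by 0.26 in COMBO (adjusted p = 0.00041) and by 0.26 in OTX015 (adjusted p = 0.00074), and had a log2 change of 0.12 in SEL201 (adjusted p = 0.098, or 0.0046 with the block). TAF3, whose PHD finger reads a methylated histone tail, rose by 0.25 in COMBO (adjusted p = 0.00095), by 0.23 in OTX015 (adjusted p = 0.0022) and by 0.16 in SEL201 (adjusted p = 0.046). The SEL201 call of TAF3 was lost in 5 of 6 fits that left out 1 library, all but that without SEL201 library 1 (adjusted p 0.072 to 0.15). TAF8, which helps assemble TFIID, rose by 0.20 in OTX015 (adjusted p = 0.001) and 0.14 in COMBO (adjusted p = 0.0091). TAF11 rose by 0.16 in COMBO (adjusted p = 0.014), a call lost without UNTREATED library 1 or COMBO library 2 (adjusted p 0.061 to 0.067). TAF5, the WD-repeat scaffold subunit, was the measured subunit not called in any of the 3 comparisons, with log2 changes of 0.00 in COMBO, -0.03 in OTX015 and 0.06 in SEL201.

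GTF2B and GTF2E1, the measured genes of TFIIB and TFIIE, moved in opposite directions. Without the block, COMBO was the only comparison with UNTREATED in which both were called. GTF2B encodes TFIIB, which bridges TFIID and the polymerase, and had 342, 323 and 299 CPM in COMBO, 310, 296 and 309 CPM in OTX015, 265, 242 and 249 CPM in SEL201, and 235, 236 and 224 CPM in UNTREATED. No library of any treated group reached down to an UNTREATED library. GTF2B was 1.39-fold higher in COMBO (log2 change 0.47, SE 0.05, adjusted p = 2.5e-06) and 1.32-fold higher in OTX015 (0.40, adjusted p = 2.5e-05), with a log2 change of 0.12 in SEL201 (adjusted p = 0.12, or 0.016 with the block). GTF2E1, the large subunit of TFIIE, fell by 0.18 on the log2 scale in COMBO (adjusted p = 0.0026). Its log2 change was -0.08 in OTX015 (adjusted p = 0.14) and -0.11 in SEL201 (adjusted p = 0.087, or 0.031 with the block).

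TFIIH, which opens promoter DNA and also serves in nucleotide excision repair, had 4 measured members, the pseudogene GTF2H2B among them. Of these, 0 rose and 2 fell in COMBO (median log2 change -0.14), 0 were called in OTX015 (median -0.01) and 1 fell in SEL201 (median -0.13). GTF2H5, its smallest subunit, had 166, 155 and 147 CPM in COMBO, 171, 161 and 169 CPM in OTX015, 156, 144 and 154 CPM in SEL201, and 170, 181 and 174 CPM in UNTREATED. It fell by 0.21 in SEL201 (SE 0.05, adjusted p = 0.013) and by 0.16 in COMBO (adjusted p = 0.018). The SEL201 call was lost without UNTREATED library 2 or SEL201 library 2 (adjusted p = 0.057 in both fits), and the COMBO call without UNTREATED library 2 or COMBO library 3 (adjusted p 0.071 to 0.077). GTF2H2C, a copy of the core subunit gene GTF2H2, fell by 0.15 in COMBO (adjusted p = 0.026), a call lost without UNTREATED library 2, COMBO library 2 or COMBO library 3 (adjusted p 0.0504 to 0.13). In SEL201 GTF2H2C had a log2 change of -0.13 (adjusted p = 0.086, or 0.028 with the block). GTF2H2, GTF2H2B and GTF2H2C are near-identical copies, so the split of reads among them is uncertain. Across all genes, 28.3% rose and 29.6% fell in COMBO, 23.3% and 24.7% in OTX015, and 10.1% and 11.1% in SEL201. The TFIIH counts were not tested against these shares.

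The TFII-I family gene GTF2IRD1, one of the genes deleted in Williams-Beuren syndrome, fell with OTX015 and COMBO. It had 193, 207 and 190 CPM in COMBO, 221, 229 and 199 CPM in OTX015, 246, 274 and 240 CPM in SEL201, and 274, 268 and 269 CPM in UNTREATED. COMBO and OTX015 lay below all UNTREATED libraries, while 1 SEL201 library reached the UNTREATED range. The log2 change was -0.46 in COMBO (SE 0.06, adjusted p = 1.4e-05), -0.32 in OTX015 (adjusted p = 0.00051) and -0.09 in SEL201 (adjusted p = 0.3).

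Mediator had 17 measured members, of which 8 rose and 2 fell in COMBO, 8 rose and 1 fell in OTX015, and 4 rose and 1 fell in SEL201. Their median log2 change was 0.08 in COMBO, 0.12 in OTX015 and 0.05 in SEL201. Among all genes, 28.3% rose and 29.6% fell in COMBO, 23.3% and 24.7% in OTX015, and 10.1% and 11.1% in SEL201. The difference between Mediator members and all genes was not tested. The middle and kinase modules held the largest rises and the head held the largest fall. Among 7 middle-module members, 3 rose and 0 fell in COMBO and in OTX015, and 2 rose in SEL201. MED26, the subunit through which Mediator binds TFIID and the super elongation complex, had 179, 177 and 177 CPM in COMBO, 170, 165 and 163 CPM in OTX015, 145, 153 and 145 CPM in SEL201, and 130, 129 and 133 CPM in UNTREATED. The 4 groups did not overlap, although COMBO against OTX015 was not called (log2 change 0.10, adjusted p = 0.19). MED26 rose by 0.44 in COMBO (SE 0.04, adjusted p = 5.4e-07), 0.35 in OTX015 (adjusted p = 1.1e-05) and 0.18 in SEL201 (adjusted p = 0.0079). Of its exonic bases 27.2% overlap AC008764.1 on the same strand, so reads there may be shared.

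MED19 and MED21 also rose in the middle module. MED19, which connects Mediator to transcription factors and the polymerase, had 357, 340 and 346 CPM in COMBO, 341, 323 and 341 CPM in OTX015, 295, 292 and 315 CPM in SEL201, and 280, 268 and 279 CPM in UNTREATED. Its log2 change was 0.34 in COMBO (SE 0.04, adjusted p = 8.4e-06), 0.28 in OTX015 (adjusted p = 7.4e-05) and 0.12 in SEL201 (adjusted p = 0.0462). The SEL201 call of MED19 was lost in 5 of 6 fits that left out 1 library, all but that without SEL201 library 2 (adjusted p 0.066 to 0.18). MED21, the partner of MED7 in the hinge of the complex, rose by 0.27 in COMBO (adjusted p = 0.00011) and 0.19 in OTX015 (adjusted p = 0.0027), with 0.08 in SEL201 (adjusted p = 0.2). The other middle members, MED4, MED7, MED9 and MED31, were not called in any of the 3 comparisons and had log2 changes between -0.10 and 0.12.

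In the head module, which contacts the polymerase, members moved in both directions. MED18 had 265, 248 and 238 CPM in COMBO, 276, 256 and 275 CPM in OTX015, 294, 271 and 274 CPM in SEL201, and 332, 304 and 306 CPM in UNTREATED. Every treated library lay below every UNTREATED library. MED18 fell by 0.32 on the log2 scale in COMBO (SE 0.05, adjusted p = 0.00011), by 0.22 in OTX015 (adjusted p = 0.0032) and by 0.17 in SEL201 (adjusted p = 0.038). MED20, with which MED18 forms a heterodimer, went the other way, with log2 changes of 0.22 in COMBO (adjusted p = 0.00065), 0.21 in OTX015 (adjusted p = 0.001) and 0.05 in SEL201 (adjusted p = 0.45). MED11 rose by 0.26 in COMBO (adjusted p = 0.0017), 0.17 in OTX015 (adjusted p = 0.027) and 0.17 in SEL201 (adjusted p = 0.0499). AC091153.4 on the opposite strand overlaps 31.1% of the exonic bases of MED11. MED6 had log2 changes of -0.08 in COMBO (adjusted p = 0.097, or 0.048 with the block), -0.03 in OTX015 and -0.04 in SEL201. Several of these calls lay near the threshold. The SEL201 call of MED18 was lost without UNTREATED library 1 or 3 or SEL201 library 2 or 3 (adjusted p 0.0518 to 0.17), while the log2 change ran from -0.20 to -0.12. The SEL201 call of MED11 was lost in every fit but that without UNTREATED library 2 (adjusted p 0.077 to 0.15), with log2 changes of 0.15 to 0.21. Its OTX015 call was lost without UNTREATED library 1 or 3 or OTX015 library 1 or 2 (adjusted p 0.073 to 0.093, log2 change 0.15 to 0.21).

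The kinase module, a dissociable part of Mediator with CDK8 or CDK19 as its kinase, was measured in MED12L and CDK19. MED12L, a paralogue of the CDK8-activating subunit MED12, had 68.7, 60.7 and 62.6 CPM in COMBO, 60.1, 59.0 and 55.2 CPM in OTX015, 49.5, 55.3 and 48.8 CPM in SEL201, and 46.6, 41.7 and 36.2 CPM in UNTREATED. All treated libraries lay above all UNTREATED libraries, and 1 SEL201 library reached the OTX015 range. MED12L was 1.54-fold higher in COMBO (log2 change 0.63, SE 0.09, adjusted p = 4.3e-05), 1.40-fold higher in OTX015 (0.49, adjusted p = 0.00058) and 1.23-fold higher in SEL201 (0.30, adjusted p = 0.03). The SEL201 call was lost without UNTREATED library 2 or 3 or SEL201 library 1 or 2 (adjusted p 0.054 to 0.12). IGSF10 on the opposite strand overlaps 28.8% of the exonic bases of MED12L. CDK19 had log2 changes of 0.08 in COMBO (adjusted p = 0.39), 0.14 in OTX015 (adjusted p = 0.12, or 0.017 with the block) and 0.02 in SEL201 (adjusted p = 0.87).

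The tail and its neighbouring subunits, where many activators bind, were measured in 4 members. MED23, bound by MAPK-activated transcription factors, rose by 0.20 in COMBO (adjusted p = 0.00079) and by 0.12 in OTX015 (adjusted p = 0.025), with 0.03 in SEL201 (adjusted p = 0.66). The OTX015 call of MED23 was lost without UNTREATED library 1 or 2 or OTX015 library 3 (adjusted p 0.051 to 0.11). MED27 rose by 0.17 in COMBO (adjusted p = 0.0016) and 0.14 in OTX015 (adjusted p = 0.0087). MED28 fell by 0.11 in COMBO (adjusted p = 0.036), a call lost without UNTREATED library 2 or COMBO library 1 or 3 (adjusted p 0.062 to 0.16). FAM184B on the opposite strand overlaps 32.1% of the exonic bases of MED28. MED30 had log2 changes of -0.07 in COMBO, -0.08 in OTX015 and 0.08 in SEL201, none called.

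**Figure D3:**
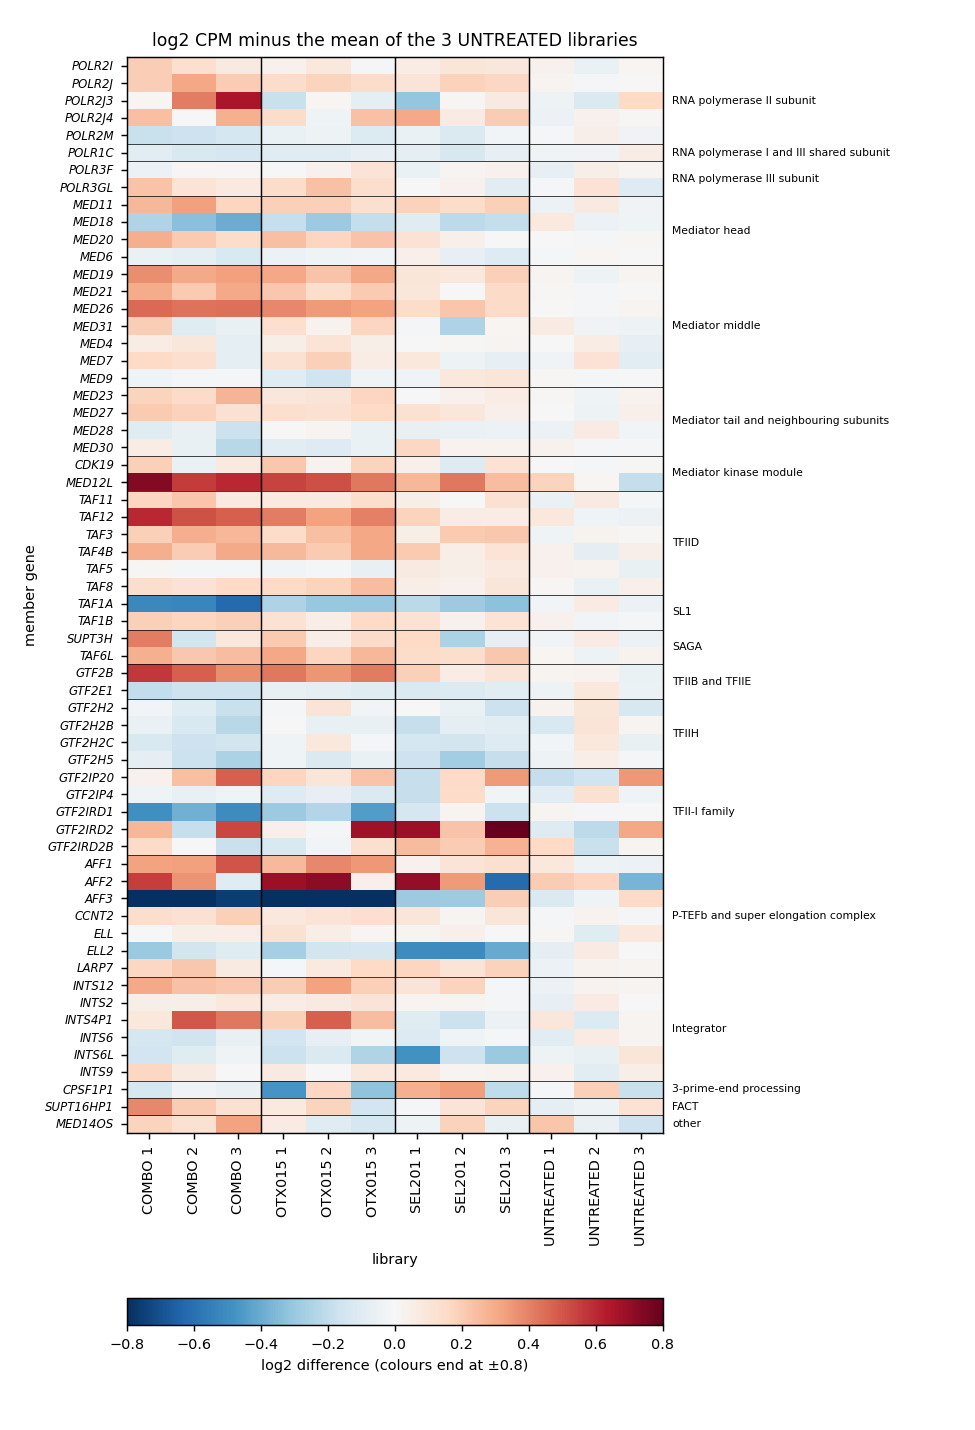
Log2 CPM of each member (rows, grouped by role) in each of the 12 libraries (columns) minus the mean of the 3 UNTREATED libraries; red is higher and blue lower, and colours end at ±0.8. MED26, TAF12 and GTF2B are red and AFF3 blue in every COMBO and OTX015 library, while the weakly expressed copies and AFF2 vary between libraries of 1 group.

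P-TEFb and the super elongation complex were measured in 7 members, of which 3 rose and 2 fell in COMBO, 2 rose and 2 fell in OTX015, and 1 rose and 1 fell in SEL201. For all genes the shares were 28.3% and 29.6% in COMBO, 23.3% and 24.7% in OTX015, and 10.1% and 11.1% in SEL201. The counts of so few members were not tested against them. AFF1, a scaffold of the super elongation complex, had 298, 299 and 338 CPM in COMBO, 285, 310 and 302 CPM in OTX015, 244, 256 and 260 CPM in SEL201, and 252, 232 and 231 CPM in UNTREATED. COMBO and OTX015 lay above all SEL201 and UNTREATED libraries, and SEL201 and UNTREATED overlapped. AFF1 rose by 0.39 in COMBO (SE 0.06, adjusted p = 4e-05) and 0.33 in OTX015 (adjusted p = 0.00026), with 0.09 in SEL201 (adjusted p = 0.31). AFF3, a family member that scaffolds a variant complex, went the opposite way at a much smaller count. It had 7.54, 9.25 and 10.8 CPM in COMBO, 7.81, 9.40 and 8.74 CPM in OTX015, 14.92, 15.02 and 20.91 CPM in SEL201, and 16.9, 17.8 and 20.3 CPM in UNTREATED, which are 148 to 206 counts in OTX015 and 393 to 429 in UNTREATED. AFF3 was 2.00-fold lower in COMBO (log2 change -1.003, SE 0.16, adjusted p = 1e-04) and 2.11-fold lower in OTX015 (-1.08, adjusted p = 8.5e-05), with a log2 change of -0.12 in SEL201 (adjusted p = 0.66). AFF2 had log2 changes of 0.28 in COMBO, 0.49 in OTX015 (adjusted p = 0.17, or 0.0019 with the block) and 0.23 in SEL201. Its libraries numbered 3 were the lowest of each group, at 9.79 CPM in COMBO, 10.8 in OTX015, 6.83 in SEL201 and 8.09 in UNTREATED.

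CCNT2 and LARP7 belong to the same group of members. CCNT2, cyclin T2, a regulatory partner of CDK9, had 242, 239 and 251 CPM in COMBO, 234, 237 and 242 CPM in OTX015, 235, 224 and 235 CPM in SEL201, and 217, 225 and 218 CPM in UNTREATED. It rose by 0.15 in COMBO (adjusted p = 0.0044) and by 0.11 in OTX015 (adjusted p = 0.03), with 0.07 in SEL201 (adjusted p = 0.22). The OTX015 call was lost without UNTREATED library 1 or 3 or OTX015 library 2 or 3 (adjusted p 0.064 to 0.097). CCNT2-AS1, an antisense gene that shares 148 exonic bases with CCNT2, also rose in COMBO (log2 change 0.47, adjusted p = 0.034) at 7.94 to 11.8 CPM, against 6.91 to 7.34 CPM in UNTREATED. The strand setting of the counting is not given in the sources used here, so reads of overlapping genes on opposite strands may not have been separated. LARP7, which stabilises the inhibitory RNA of P-TEFb, rose by 0.15 in COMBO (adjusted p = 0.015) and by 0.16 in SEL201 (adjusted p = 0.035), with 0.08 in OTX015 (adjusted p = 0.22). Its COMBO call was lost without UNTREATED library 1 or COMBO library 2 (adjusted p 0.061 to 0.071), and its SEL201 call in every fit but that without SEL201 library 2 (adjusted p 0.0519 to 0.12).

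ELL2, an elongation factor that raises the speed of the polymerase, was lowest with SEL201 alone. It had 282, 312 and 324 CPM in COMBO, 288, 313 and 315 CPM in OTX015, 244, 243 and 261 CPM in SEL201, and 329, 362 and 347 CPM in UNTREATED. SEL201 lay below every other library, and COMBO and OTX015 overlapped each other and lay below UNTREATED. ELL2 fell by 0.47 on the log2 scale in SEL201, to a 1.39-fold lower level (SE 0.06, adjusted p = 6.7e-05), by 0.18 in OTX015 (adjusted p = 0.017) and by 0.18 in COMBO (adjusted p = 0.015). The OTX015 call was lost without UNTREATED library 2 or OTX015 library 1 (adjusted p 0.076 to 0.082), and the COMBO call without UNTREATED library 2 or COMBO library 1 (adjusted p 0.069 to 0.08). The SEL201 call held in every fit that left out 1 library.

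ELL, the paralogue of ELL2, was not called, with log2 changes of 0.03 in COMBO (adjusted p = 0.55), 0.06 in OTX015 (adjusted p = 0.28) and 0.02 in SEL201 (adjusted p = 0.8). The log2 ratio of ELL to ELL2 within a library was 0.32, 0.22 and 0.17 in COMBO, 0.41, 0.22 and 0.17 in OTX015, 0.55, 0.57 and 0.43 in SEL201, and 0.10, -0.14 and 0.11 in UNTREATED. No treated library overlapped UNTREATED in this ratio. The mean difference from UNTREATED was 0.22 in COMBO and 0.25 in OTX015, each with an exact two-sided permutation p of 0.1 (0.1 adjusted over the 2 comparisons), the smallest value that 3 against 3 libraries can give, so the design could not reach the threshold. The COMBO difference was 0.13 without UNTREATED library 2, and the OTX015 difference 0.16 without it. The same difference was 0.49 in SEL201, also at the smallest possible exact p of 0.1.

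**Figure D4:**
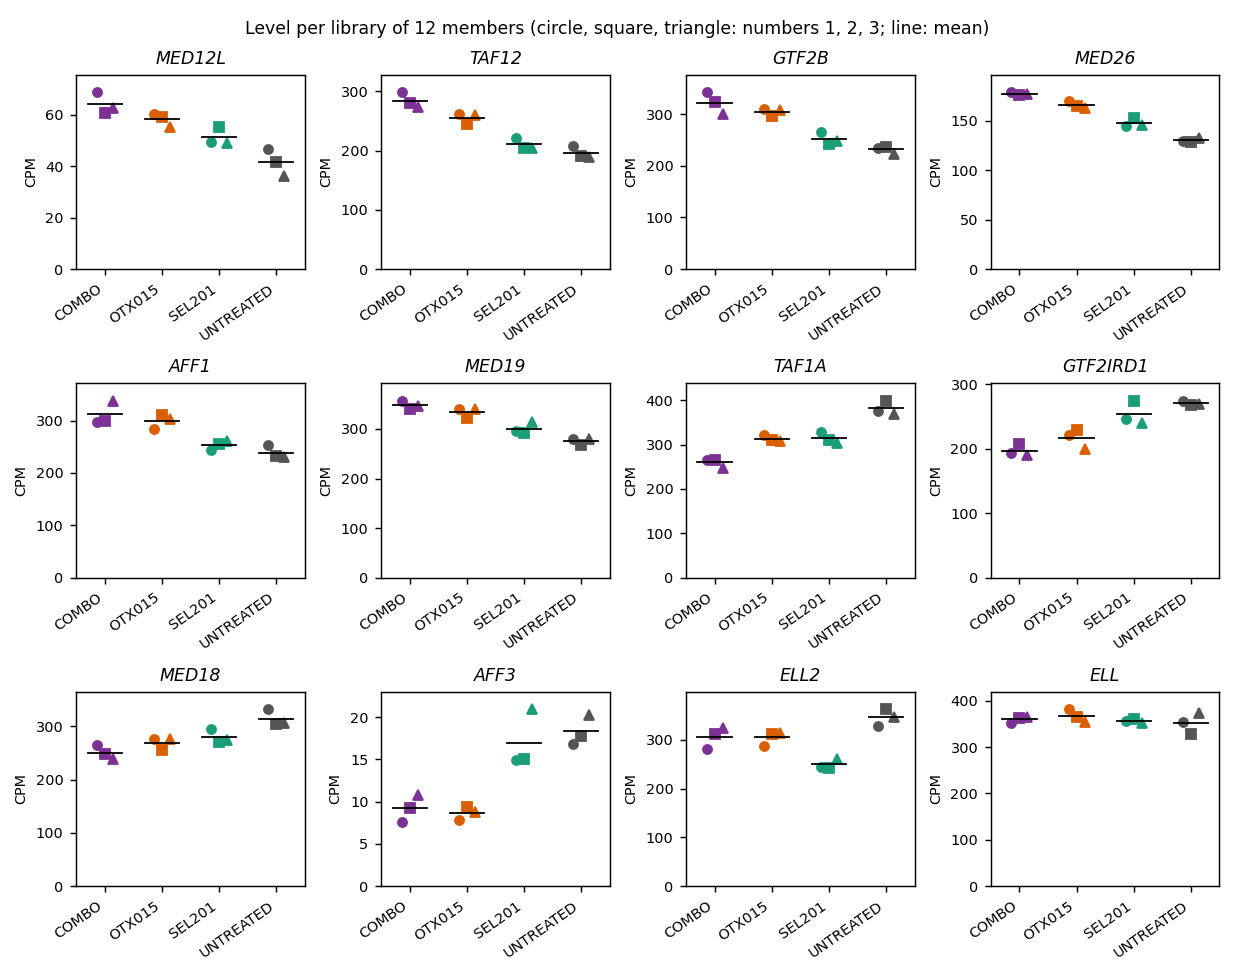
CPM (vertical axis, from 0) of 12 members in every library, with COMBO, OTX015, SEL201 and UNTREATED along the horizontal axis; circles, squares and triangles are libraries 1, 2 and 3 and lines are group means. MED26 steps down over the 4 groups without overlap, TAF1A steps up with OTX015 and SEL201 level, and ELL2 is lowest in SEL201.

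Genes named for RNA polymerase II, its catalytic subunit aside, were measured in 5 members. They include POLR2J4, which is not protein-coding, and POLR2M, described below as an inhibitor. Of the 5, 2 rose and 1 fell in COMBO, and 1 rose in OTX015 and in SEL201. With the replicate block 4 rose in COMBO, with POLR2J3 and POLR2J4 added, and 2 in SEL201, with POLR2J4 added. With the block 18% of all genes rose and 19.1% fell in SEL201. For COMBO the shares with the block are not given here, so its count of 4 has no matching share. Without the block, 28.3% of all genes rose and 29.6% fell in COMBO, 23.3% and 24.7% in OTX015, and 10.1% and 11.1% in SEL201. No test set these counts against those shares. POLR2J, a subunit of the assembly platform, had 322, 348 and 324 CPM in COMBO, 311, 318 and 311 CPM in OTX015, 302, 319 and 316 CPM in SEL201, and 285, 278 and 280 CPM in UNTREATED. All treated libraries lay above UNTREATED, with log2 changes of 0.24 in COMBO (SE 0.04, adjusted p = 0.00013), 0.16 in OTX015 (adjusted p = 0.0045) and 0.15 in SEL201 (adjusted p = 0.013, or 0.0515 without SEL201 library 2). POLR2J has near-identical copies, POLR2J3 and POLR2J4 among them, so its reads may be shared with them. POLR2I, a subunit involved in transcript proofreading, rose by 0.13 in COMBO (adjusted p = 0.035), a call lost without UNTREATED library 2 or 3 or COMBO library 1 or 2 (adjusted p 0.0537 to 0.14). Of its exonic bases 61.9% overlap another gene on the opposite strand. POLR2M, known as Gdown1 and as an inhibitor that Mediator relieves, fell by 0.16 in COMBO (adjusted p = 0.0036), with -0.07 in OTX015 (adjusted p = 0.19) and -0.06 in SEL201 (adjusted p = 0.31). GCOM1 on the same strand overlaps 21.1% of the exonic bases of POLR2M, so reads there may be shared.

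TAF1A gave the clearest fall among the members of RNA polymerase I transcription. With TAF1B it belongs to SL1, the factor that recognises ribosomal RNA gene promoters. TAF1A had 266, 266 and 248 CPM in COMBO, 321, 310 and 309 CPM in OTX015, 329, 311 and 304 CPM in SEL201, and 376, 399 and 370 CPM in UNTREATED. The single agents overlapped each other, lay below UNTREATED and lay above COMBO. TAF1A was 1.47-fold lower in COMBO (log2 change -0.55, SE 0.04, adjusted p = 1.4e-07), and fell by 0.28 in OTX015 (adjusted p = 0.00013) and by 0.28 in SEL201 (adjusted p = 0.00061). TAF1A-AS1, an antisense gene that shares 109 exonic bases with it, stood at 5.11 to 7.92 CPM over all libraries, with log2 changes of 0.10 in COMBO, 0.00 in OTX015 and -0.08 in SEL201. TAF1B rose by 0.18 in COMBO (adjusted p = 0.001) and by 0.11 in OTX015 (adjusted p = 0.033), with 0.08 in SEL201 (adjusted p = 0.15). Its OTX015 call was lost without UNTREATED library 2 or 3 or OTX015 library 1 or 3 (adjusted p 0.074 to 0.14).

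POLR1C, a subunit shared by RNA polymerases I and III, fell by 0.11 in COMBO (adjusted p = 0.016, or 0.089 without UNTREATED library 3). Its log2 change was -0.09 in OTX015 (adjusted p = 0.062, or 0.026 with the block) and -0.09 in SEL201 (adjusted p = 0.092, or 0.032 with the block). The RNA polymerase III subunits were not called by the group-means edgeR fit in any comparison with UNTREATED. POLR3F had log2 changes of -0.01 in COMBO, 0.05 in OTX015 and -0.00 in SEL201. POLR3GL, a paralogue of POLR3G, had 0.14 in COMBO (adjusted p = 0.11, or 0.041 with the block), 0.17 in OTX015 (adjusted p = 0.063, or 0.014 with the block and 0.047 with DESeq2) and -0.02 in SEL201 (adjusted p = 0.89). Without UNTREATED library 2, POLR3GL was called in OTX015 (log2 change 0.23, adjusted p = 0.026) and in COMBO (0.20, adjusted p = 0.043).

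In the coactivator SAGA, TAF6L rose in all 3 comparisons and SUPT3H in none. TAF6L, the SAGA counterpart of TAF6, had 253, 241 and 246 CPM in COMBO, 257, 234 and 250 CPM in OTX015, 230, 229 and 241 CPM in SEL201, and 210, 201 and 211 CPM in UNTREATED. It rose by 0.25 in COMBO (adjusted p = 0.00024), 0.25 in OTX015 (adjusted p = 0.00034) and 0.17 in SEL201 (adjusted p = 0.014). The SEL201 call was lost without UNTREATED library 2 or SEL201 library 3 (adjusted p 0.058 to 0.063). SUPT3H had log2 changes of 0.13 in COMBO, 0.14 in OTX015 and -0.04 in SEL201.

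Integrator was measured in 6 members, the pseudogene INTS4P1 among them. Of these, 1 rose and 1 fell in COMBO, 1 rose in OTX015 and 1 fell in SEL201. With the replicate block 2 rose and 1 fell in COMBO, with INTS4P1 added, and 1 rose and 1 fell in OTX015, with INTS6 added. The shares of all genes with the block are not given here for these comparisons, so these block counts have no matching share. Without the block, 28.3% of all genes rose and 29.6% fell in COMBO, 23.3% and 24.7% in OTX015, and 10.1% and 11.1% in SEL201. The Integrator counts were not tested against these shares. INTS12, a PHD-finger subunit, had 155, 148 and 146 CPM in COMBO, 145, 157 and 144 CPM in OTX015, 135, 142 and 124 CPM in SEL201, and 122, 128 and 127 CPM in UNTREATED. It rose by 0.25 in COMBO (SE 0.06, adjusted p = 0.0017) and 0.24 in OTX015 (adjusted p = 0.0033), with 0.09 in SEL201 (adjusted p = 0.3). INTS6, a subunit that links Integrator to a phosphatase, fell by 0.12 in COMBO (adjusted p = 0.0498), a call lost without UNTREATED library 2 or 3 or COMBO library 1 or 2 (adjusted p 0.11 to 0.19) and with DESeq2 (adjusted p = 0.056). In OTX015 INTS6 had a log2 change of -0.08 (adjusted p = 0.2, or 0.046 with the block). INTS6L, the paralogue of INTS6, had 35.3, 36.7 and 38.3 CPM in COMBO, 34.8, 36.2 and 33.3 CPM in OTX015, 28.12, 35.05 and 31.95 CPM in SEL201, and 38.2, 37.7 and 42.0 CPM in UNTREATED. It fell by 0.31 in SEL201 (SE 0.09, adjusted p = 0.022), a call lost without UNTREATED library 3 or SEL201 library 1 (adjusted p 0.082 to 0.11), with -0.10 in COMBO (adjusted p = 0.37) and -0.18 in OTX015 (adjusted p = 0.12). INTS2 and INTS9 had log2 changes of 0.06 and 0.08 in COMBO, 0.08 and 0.05 in OTX015, and 0.01 and 0.04 in SEL201, none called, although INTS2 was called in OTX015 without UNTREATED library 2 (log2 change 0.11, adjusted p = 0.039).

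In COMBO against SEL201, 14 members rose and 4 fell (22.6% and 6.45%), against 18.8% and 21.2% of all genes, and with the replicate block 21 rose and 7 fell, against 26% and 27.4% of all genes. The difference between members and all genes was not tested. TAF12 rose by 0.43 (adjusted p = 2.1e-05), GTF2B by 0.35 (adjusted p = 0.00011), AFF1 by 0.30 (adjusted p = 0.00079), MED26 by 0.27 (adjusted p = 0.00018) and ELL2 by 0.29 (adjusted p = 0.001). MED12L rose by 0.32 (adjusted p = 0.012, or 0.059 without COMBO library 1). AFF3 fell by 0.89 (adjusted p = 0.00064), GTF2IRD1 by 0.37 (adjusted p = 0.00028), TAF1A by 0.27 (adjusted p = 0.00027) and MED18 by 0.16 (adjusted p = 0.028). The MED18 call was lost without SEL201 library 1 or COMBO library 2 or 3 (adjusted p 0.075 to 0.13). Of the 18 calls, 12 held in every fit that left out 1 library.

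Adding SEL201 to OTX015 gave few calls, among the members as among all genes. In COMBO against OTX015, 0 members rose and 1 fell, against 2.9% and 4.01% of all genes. At an unadjusted p under 0.05 there were 3 higher and 6 lower, and DESeq2 called 0 higher and 1 lower. The shares of all genes at an unadjusted p and with DESeq2 are not given here, so these counts have no matching share. The faller was TAF1A, by 0.27 on the log2 scale (SE 0.04, adjusted p = 0.0029), and every COMBO library lay below every OTX015 library. With the replicate block 2 members were higher and 5 lower, against 10% and 12.2% of all genes. TAF12 had a log2 change of 0.15 (adjusted p = 0.097, or 0.0025 with the block) and GTF2IRD1 one of -0.14 (adjusted p = 0.2, or 0.016 with the block).

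The interaction asks whether the COMBO change differs on the log2 scale from what the 2 single agents add up to. ELL2 was called, as 1 higher and 0 lower of 62 members, against 0.21% and 0.0699% of all genes. At an unadjusted p under 0.05 there were 3 members higher and 1 lower, and DESeq2 called 1 higher and 0 lower. Matching shares of all genes for these counts are not given here. The ELL2 fall in COMBO was smaller than the sum of the single-agent falls by 0.48 (SE 0.08, adjusted p = 0.03, or 2.3e-07 with the block). The call was lost in 6 of 12 fits that left out 1 library: UNTREATED 2 or 3, SEL201 1 or 2, OTX015 1 or COMBO 2 (adjusted p 0.059 to 0.099, value 0.43 to 0.53 over all 12 fits). With the block 2 members were higher and 1 lower, against 4.02% and 2.73% of all genes. These were ELL2, INTS6L at 0.39 (adjusted p = 0.03 with the block and 0.29 without) and TAF6L at -0.17 (0.044 with the block and 0.37 without), the last 2 named after their values were seen.

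Other genes of the same processes were read from a list of 88, of which 22 were in the table. In COMBO 6 of the 22 rose and 6 fell (median log2 change 0.02), in OTX015 9 rose and 3 fell (0.06), and in SEL201 3 rose and 4 fell (-0.01). The shares of all genes that rose and fell were 28.3% and 29.6% in COMBO, 23.3% and 24.7% in OTX015, and 10.1% and 11.1% in SEL201. The COMBO counts lay close to those shares, and no difference was tested. MLLT3, a reader protein of the super elongation complex, averaged 388 ± 14.3 CPM in COMBO, 344 ± 13.9 in OTX015, 327 ± 12.2 in SEL201 and 281 ± 5.65 in UNTREATED (SD, n = 3 each). It rose by 0.47 in COMBO (SE 0.04, adjusted p = 5.3e-07). SNAPC2, a subunit of the factor for small nuclear RNA genes, averaged 356 ± 12.3 CPM in COMBO and 278 ± 5.18 CPM in UNTREATED (log2 change 0.36, adjusted p = 7.9e-06). CTDSPL, a small phosphatase of the CTD phosphatase family, fell by 0.27 (adjusted p = 2.4e-05), and GPN1, a GTPase needed for nuclear import of RNA polymerase II, fell by 0.25 (adjusted p = 9e-05). Larger changes at lower levels, named after their values were seen, were those of TCEA3, a TFIIS family gene, and EAF2, an ELL-associated factor. TCEA3 fell by 0.76 in COMBO (adjusted p = 0.00038) and by 0.62 in OTX015 (adjusted p = 0.0024), with 7.21 ± 0.599 CPM in COMBO, 7.95 ± 1.35 CPM in OTX015 and 12.2 ± 1.2 CPM in UNTREATED. EAF2 rose by 0.50 in COMBO (adjusted p = 0.0014) and by 0.42 in OTX015 (adjusted p = 0.0062), with 41.7 ± 4.73 CPM in COMBO, 39.4 ± 3.61 CPM in OTX015 and 29.4 ± 0.704 CPM in UNTREATED. HEXIM2, an inhibitor of P-TEFb, had log2 changes of -0.08 in COMBO, -0.04 in OTX015 and -0.11 in SEL201, none called.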

How the data were processed

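RNA from 12 libraries of A375 cells was sequenced as stranded poly(A) libraries with paired 150-base reads, per the labels' protocols. The authors deposited raw counts per gene. The build hg19 and the tools STAR 2.5.4b, featureCounts, SAMtools 1.9, Trimmomatic, FastQC and DESeq2 stand in the submitters' processing notes, with no roles. For annotation, strand setting and gene filter the entry is: not given in the sources used here.

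Counts were fitted for all 8579 genes with edgeR 4.0.16 in R 4.3.3 (TMM, filterByExpr, glmQLFit and glmQLFTest, group means), with Benjamini-Hochberg adjustment over all genes and a threshold of 0.05. Rises and falls are given on the log2 scale. Alternatives used DESeq2 1.42.0, other scalings and filters, and a replicate block. Separate cultures are not stated, so a p-value here reflects only library-to-library spread, possibly technical. Replicates differed beyond counting noise (chi-square over its degrees of freedom at least 6.34). The numbers pair the libraries, from the data and not the labels: deviations from group means correlated at 0.275 to 0.588 in 18 same-numbered pairs and -0.477 to 0.199 in 36 others. The block lowered the biological coefficient of variation, 7.92% without it, to 4.35%. Fits that left out 1 library did not include the block, so the calls lost in them come from fits that ignore this pairing. With the block on all libraries, none of the named calls was lost.

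Named genes are the largest called changes per comparison (up to 10 each way against UNTREATED, 6 each way otherwise), kinases, cyclins, LARP7, AFF1, ELL and ELL2, and 3 per role with the lowest p. Other members are named to account for the list. Members, lists and rules were chosen with earlier results of these data known. The group-means edgeR fit of COMBO against UNTREATED was also run on simulated counts. These were drawn without the pairing of libraries, so that run does not cover paired data, the block or the other comparisons. Gene types and exon overlaps come from GENCODE v29, and promoters from RefSeq GRCh38.p14, neither on the authors' build. Figures were drawn with matplotlib 3.10.9 in Python 3.11.15.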

Additional observations from a re-analysis of the deposited data

Results flagged for a closer look

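The change of ELL2 with SEL201 differed between cells without and with OTX015, by a test of the difference itself. The difference of 0.48 (log2, SE 0.08, edgeR adjusted p = 0.03) sets a log2 change of 0.00 in the presence of OTX015 (COMBO against OTX015, adjusted p = 0.99) against one of -0.47 in its absence (SEL201 against UNTREATED). In 6 of 12 fits that left out 1 library, those without UNTREATED 2 or 3, SEL201 1 or 2, OTX015 1 or COMBO 2, the adjusted p was 0.059 to 0.099. With the replicate block it was 2.3e-07.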

How the results depend on the processing

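Of 154 gene results, 91 called, 2161 values were computed under 20 other settings: 1966 kept direction and side of the threshold, 143 lost the call, 24 gained it and 28 changed sign. None of those that changed sign was called. The low-count filter removed none of the 8579 genes, so the fit without it repeated the main fit. Its 154 values, all among the 1966 kept, therefore show nothing about robustness. A stricter filter changed 1 call, RLE size factors 3, DESeq2 2 and library totals without scaling 4. The replicate block took the members higher and lower with SEL201 to 13 and 8, those lower in COMBO against SEL201 to 7, those in COMBO against OTX015 to 2 and 5, and the interaction to 2 and 1; it ended no call. The fit of the compared groups only gave 4 members higher with SEL201, and leaving out the 4 libraries numbered 3 gave 2 higher and 3 lower. These fits had fewer samples, their shares of all genes are not given here, and the cause was not tested. Leaving out 1 library gave 3 to 4 higher and 3 to 4 lower with SEL201, 16 to 19 and 4 to 5 with OTX015, and 20 to 23 and 7 to 12 with COMBO (7 without UNTREATED 2). It gave 11 to 13 and 3 to 5 in COMBO against SEL201, 0 and 1 against OTX015, and 0 to 1 and 0 in the interaction. Shares of all genes in the fits without 1 library are not given here either. Signs changed for uncalled members near 0. With SEL201, CDK19 was -0.0216 and MED14OS -0.0121 without the libraries numbered 3, and POLR3F 0.0114 with library totals and 0.000208 with the block. GTF2H2 with OTX015 was -0.0149 without the libraries numbered 3. Without 1 library, SEL201 values ran from -0.0274 to 0.0782 for CDK19, -0.0267 to 0.0666 for ELL, -0.0598 to 0.146 for MED14OS, -0.0308 to 0.0267 for POLR3F, -0.0648 to 0.0406 for POLR3GL and -0.158 to 0.0517 for SUPT3H. OTX015 values ran from -0.0362 to 0.0716 for GTF2H2, -0.0983 to 0.0120 for GTF2H2B, -0.000392 to 0.425 for GTF2IRD2, -0.140 to 0.0572 for MED14OS and -0.0345 to 0.129 for SUPT16HP1. COMBO values ran from -0.169 to 0.0151 for CPSF1P1, -0.0125 to 0.0805 for ELL, -0.0406 to 0.0137 for POLR3F and -0.0321 to 0.257 for SUPT3H. The SE of the COMBO change was 0.04 for MED26, 0.16 for AFF3 and 0.28 for AFF2, whose libraries numbered 3 were the lowest of each group.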

Other observations

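Of the 8 members that are not protein-coding, 0 were called against UNTREATED by the group-means edgeR fit. That fit had 28.3% of all genes higher and 29.6% lower in COMBO, 23.3% and 24.7% in OTX015, and 10.1% and 11.1% in SEL201. The difference was not tested. INTS4P1 alone had an unadjusted p under 0.05, in COMBO and in OTX015, and DESeq2 values computed for these members gave 0 calls. With the replicate block 3 were called in COMBO, all higher (INTS4P1, GTF2IP20 and POLR2J4), 0 in OTX015 and 1 in SEL201 (POLR2J4). Of all genes, 18% rose and 19.1% fell in SEL201 with the block. The shares with the block in COMBO and OTX015, and those with DESeq2, are not given here. Reads of copies may be shared with their parent genes. POLR2J3, a copy of POLR2J, had 8.10, 10.6 and 12.6 CPM in COMBO, 7.07, 8.07 and 7.62 CPM in OTX015, 6.47, 8.06 and 8.41 CPM in SEL201, and 7.76, 7.38 and 8.93 CPM in UNTREATED. It rose by 0.44 in COMBO against SEL201 (SE 0.17, edgeR adjusted p = 0.0479), a call lost without SEL201 library 1 or 2 or COMBO library 2 or 3 (adjusted p 0.07 to 0.19). INTS4P1, a pseudogene of INTS4, rose by 0.45 in the same comparison (adjusted p = 0.022), a call lost without the same 4 libraries (adjusted p 0.0532 to 0.094). Against UNTREATED its COMBO change was 0.34 (adjusted p = 0.051), and the adjusted p was 0.043 with the block, 0.0485 with RLE size factors, 0.0481 with library totals and 0.014 without COMBO library 1. GTF2IRD2 had 7.83, 5.71 and 8.60 CPM in SEL201, against 4.55, 4.23 and 6.05 CPM in UNTREATED, which overlap. Its log2 change of 0.58 (SE 0.24) had an adjusted p of 0.1, or 0.0042 with the replicate block. GTF2IRD2B, its near-identical copy, had a log2 change of 0.24 there (adjusted p = 0.2).

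GTF2IP20 had a log2 change of 0.24 in COMBO (adjusted p = 0.23), with 0.25 and an adjusted p of 0.035 in the block fit and 0.43 and 0.028 without UNTREATED library 3. SUPT16HP1 had one of 0.24 in COMBO (adjusted p = 0.11, or 0.045 without the libraries numbered 3). GTF2IP4, CPSF1P1 and GTF2H2B were not called in any of the 3 comparisons with UNTREATED under the settings run for them. MED14OS stood at 8.69 to 9.99 CPM in COMBO and 7.14 to 9.35 CPM in UNTREATED (log2 change 0.19, adjusted p = 0.25). POLR2J4 had log2 changes of 0.18 in COMBO (adjusted p = 0.12, or 0.037 with the block), 0.12 in OTX015 and 0.19 in SEL201 (adjusted p = 0.17, or 0.04 with the block).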
